A study of Mus musculus with 14 samples.

Results

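The Klra genes encode the Ly49 receptors, and their cluster lies on mouse chromosome 6. The list described here holds 10 of them, Klra1 to Klra9 and Klra17. The array carried 15 probes named for 9 of the 10 genes, of 55681 non-control probes in all, and Klra3 was matched by no probe, either by gene name or by accession. Each probe was read on its own. Of the 15 probes, 11 passed the detection filter, as did 49918 of all probes. To pass, a probe had to be called well above background, on 2 or more arrays of the same group. The genes were chosen with measured values of these arrays in view, and the comparison that chose them is not recorded. All differences below are therefore a description, with the fit's adjusted p given as part of it, and nothing is supported with them.

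RNA came from satellite cells, the stem cells of skeletal muscle, sorted as α7-integrin and CD34 positive cells that lacked CD31, CD45, CD11b and Sca1. It was amplified and labelled with Cy3, and each of 14 single-colour Agilent arrays carried 1 sample. The C57BL/6 mice were Young (3 arrays, 2, 2 and 3 months), Old (3 arrays, 22, 23 and 24 months) and Geriatric (2 arrays, 29 and 30 months). SAMP8, a senescence-prone strain, and SAMR1, a senescence-resistant strain, had 3 arrays each from mice of 12 months. No group carried a transgene or a treatment, and the labels call every mouse male. The arrays are labelled as biological replicates, and no pooling of mice is mentioned.

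Ly49 receptors are C-type lectin-like proteins that pair into dimers on the surface of mouse natural killer cells and some other blood cells. Most of them bind class I molecules of the major histocompatibility complex. Inhibitory members recruit phosphatases through a motif in their cytoplasmic tail, whereas activating members signal through an adaptor protein. The number and the sequence of Ly49 genes differ between inbred mouse strains. Muscle stem cells are not a cell type for which these receptors are known, and CD45, a marker of the blood cells that carry them, was a marker against which the cells were sorted.

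The probes were 60 bases long, with coordinates of build mm9 and all on the minus strand of chromosome 6. Because the genes are close relatives, the sequence that a probe shares with other probes of the array bears on what it reads. The probes of Klra9, Klra6 and Klra4 are shown for this reason, 5′ to 3′, with the longest run shared with another Ly49 probe in capitals.
Klra9: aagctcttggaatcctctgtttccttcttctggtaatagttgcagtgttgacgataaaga
Klra6: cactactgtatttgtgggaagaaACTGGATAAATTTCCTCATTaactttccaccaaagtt
Klra4: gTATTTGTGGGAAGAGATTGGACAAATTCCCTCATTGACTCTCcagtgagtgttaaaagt
The Klra9 probe, at chr6:130139716-130139775, shared no run of 20 bases or more with any other probe. The Klra6 probe, at chr6:129963349-129963408, shared 20 bases each with a probe for Klra23 and a probe for Klra7, and the Klra4 probe shared 42 bases with a probe for Klra15. Of the other members, the Klra1 probe shared 33 bases with one for Klra16, and Klra7 probes shared 21 bases with one for Klra22 and 37 bases with one for Klra23.

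Klra8 had 3 probes, none of which shared 20 bases with another probe. A_55_P2004526 (chr6:130065245-130065304) and A_55_P2004527 (chr6:130065310-130065369) lay next to each other. A_66_P121933 covered an interval of 1653 bases (chr6:130078170-130079822), longer than the probe itself, so that its letters come from separate stretches. Exon and UTR annotation of this build was not used here. Only exact runs shared with other probes of the array were sought. Whether any Klra probe also binds transcripts of other Ly49 genes was not tested. How well any of these probes match the Klra alleles of SAMR1 and SAMP8 mice was not tested either.

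Levels are log2 signals relative to each array's 75th percentile, and they are compared only within a probe. Between 77.1% (SAMP8 2) and 88.8% (Old 1) of all probes were well above background on an array, and no spot was saturated. Of the markers that define satellite cells, Pax7, Myf5, Itga7, Cd34 and Cdh15 were detected on all 14 arrays. Sex-linked transcripts went against the labels on some arrays. Xist, the RNA that silences an X chromosome in female cells, averaged 5.26 ± 0.26 in Old and 5.69 ± 0.15 in Young samples (SD, n = 3 each). Ddx3y, a gene of the Y chromosome, was detected on none of these 6 arrays but on all 8 arrays of the other groups. The libraries labelled Geriatric thus differ in sex-linked transcripts from those labelled Young and Old, as do both SAM strains, and in every comparison across this division sex-linked state and age or strain cannot be told apart. SAMP8 versus SAMR1 and Old versus Young do not cross it.

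Klra8 encodes Ly49H, the activating receptor that recognises a protein of mouse cytomegalovirus. Probe A_55_P2004526 read −7.79, −7.38 and −8.03 on the SAMP8 arrays, against −0.42, −0.62 and −2.81 on the SAMR1 arrays. On Young arrays it read −5.92, −6.01 and −7.64, on Old arrays −2.66, −3.05 and −3.80, and on Geriatric arrays −8.15 and −8.17. The probe was well above background on the 3 Old and the 3 SAMR1 arrays and on no other array. The dim values have only a bound, since the signal of an undetected spot varies with the array.

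The neighbouring Klra8 probe A_55_P2004527 read −6.57, −7.10 and −7.30 on SAMP8 arrays, against −0.88, −0.72 and −2.60 on SAMR1 arrays. It read −6.57, −5.82 and −5.27 on Young, −3.05, −3.06 and −3.14 on Old, and −6.77 and −7.73 on Geriatric arrays. It too was above background on the same 6 arrays and on no other. In both probes the arrays of SAMP8 lay below all arrays of SAMR1, and SAMR1 3 lay below the other SAMR1 arrays. Over the 14 arrays, which share the groups and the scaling, both probes had a Pearson correlation of 0.97.

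**Figure D1:**
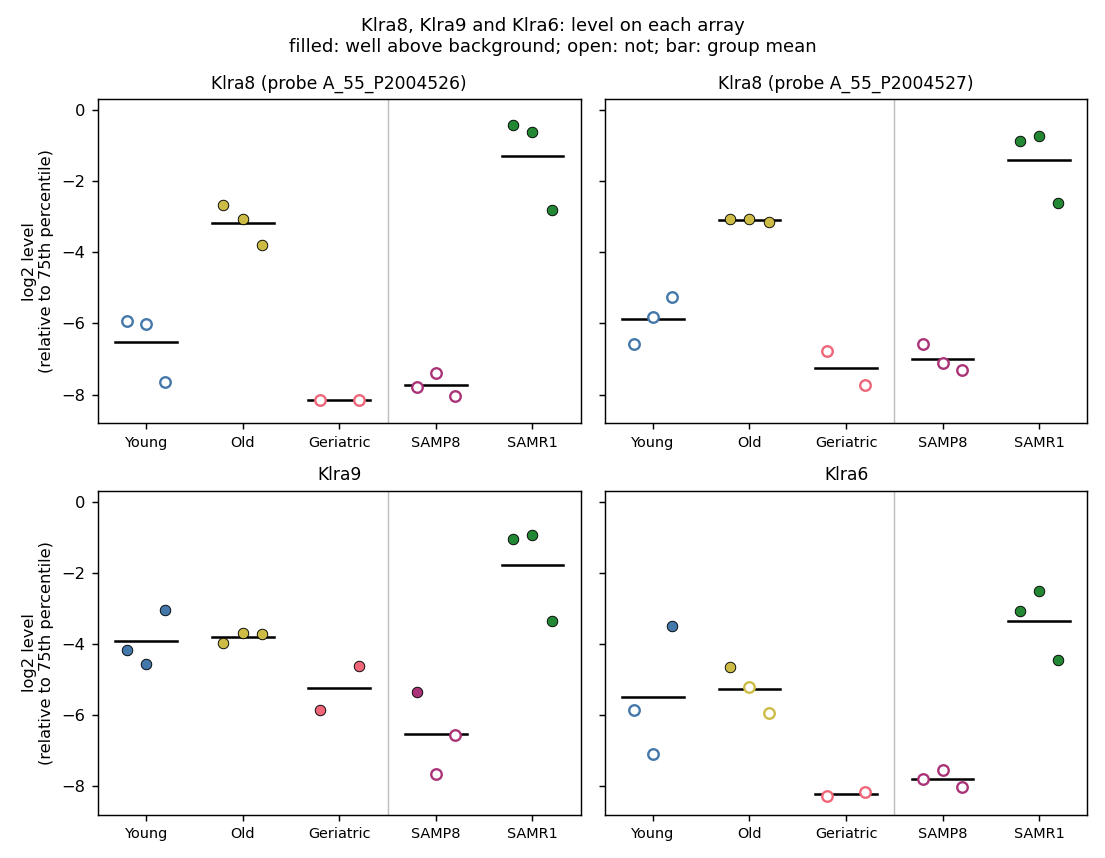
Level on each array (y axis, log2 relative to the array's 75th percentile) of both neighbouring Klra8 probes and of the Klra9 and Klra6 probes, by group (x axis). Filled points are well above background, open points are not, and bars are group means. Both Klra8 probes are filled on the Old and SAMR1 arrays alone, and in all 4 panels the SAMP8 points lie below the SAMR1 points.

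The Klra8 probe A_66_P121933 did not follow the other probes of its gene. It read −7.61, −5.08 and −7.78 on SAMP8 arrays, against −5.74, −8.17 and −6.51 on SAMR1 arrays, so that the strains overlapped. It was above background on 5 arrays, spread over Young, Old, SAMR1 and SAMP8. Its correlation over the 14 arrays was 0.12 with A_55_P2004526 and 0.14 with A_55_P2004527. The probes of Klra8 thus disagree, and its values below are given per probe.

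Klra4 encodes Ly49D, the other activating receptor of the list. Its probe was above background on SAMR1 1 and SAMR1 2 alone, at −5.72 and −4.83, while SAMR1 3 read −7.87. SAMP8 arrays read −7.79, −7.64 and −8.03, close to SAMR1 3. The Young, Old and Geriatric arrays lay between −8.17 and −5.48, all of them not well above background, so no order of these groups can be read.

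Among the inhibitory receptors, Klra9, which encodes Ly49I, was detected on 12 of 14 arrays. It read −5.34, −7.65 and −6.57 on SAMP8 arrays, of which only the first was above background, against −1.03, −0.93 and −3.34 on SAMR1 arrays. The C57BL/6 arrays read −4.15, −4.56 and −3.04 when Young, −3.96, −3.68 and −3.72 when Old, and −5.86 and −4.60 when Geriatric. The order of group means was SAMR1, Old, Young, Geriatric and SAMP8. SAMR1 lay above Old and Young above Geriatric without overlap, whereas Old and Young overlapped, as did Geriatric and SAMP8. SAMR1 and Young overlapped too, since SAMR1 3 (−3.34) lay below Young 3 (−3.04).

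Klra6, which encodes Ly49F, read −7.79, −7.53 and −8.03 on SAMP8 arrays, none above background, against −3.06, −2.52 and −4.46 on SAMR1 arrays, all above background. Young arrays read −5.85, −7.10 and −3.48, Old arrays −4.64, −5.20 and −5.93, and Geriatric arrays −8.27 and −8.17. In C57BL/6 mice it was detected on Young 3 and Old 1 only. Young and Old overlapped, and the Geriatric arrays lay below both, with no array above background.

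The remaining inhibitory receptors varied less between groups. Klra1, which encodes Ly49A, a receptor for H2-D molecules, was detected on all 14 arrays at −5.52 to −3.47, with a median of −4.17. Every pair of neighbouring groups in its order of means overlapped. Klra7, which encodes Ly49G, was detected on 8 arrays by A_66_P100029, at −6.19 to −3.78 over all arrays, and again all neighbouring groups overlapped.

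Klra5, which encodes Ly49E, had 2 probes that shared 44 bases. A_55_P2077958 was detected on 13 arrays and read −3.55, −4.65 and −4.30 on Young, −3.16, −3.22 and −2.52 on Old, and −4.20 and −5.04 on Geriatric arrays. SAMP8 arrays read −4.83, −4.21 and −5.61, against −3.52, −5.96 and −4.99 on SAMR1 arrays. The Old arrays lay above all other C57BL/6 arrays, while the SAM strains overlapped. A_51_P104939, printed as 10 spots on each array, was above background on Old 1 alone, so the probes of Klra5 disagree on whether the transcript was detected.

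Klra2 and Klra17 encode Ly49B and Ly49Q, which are known from myeloid cells and from plasmacytoid dendritic cells. Klra2 was detected on all arrays. It read −2.45, −3.82 and −2.46 on Young, −3.05, −2.78 and −3.10 on Old, and −4.37 and −4.52 on Geriatric arrays. SAMP8 arrays read −3.28, −2.81 and −4.46, against −3.65, −4.45 and −3.04 on SAMR1 arrays. The Geriatric arrays lay below all Young and Old arrays, and SAMP8 and SAMR1 overlapped. Klra17 was detected on 12 arrays by A_52_P25026, at −5.65 to −3.89, with overlap of all neighbouring groups.

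**Figure D2:**
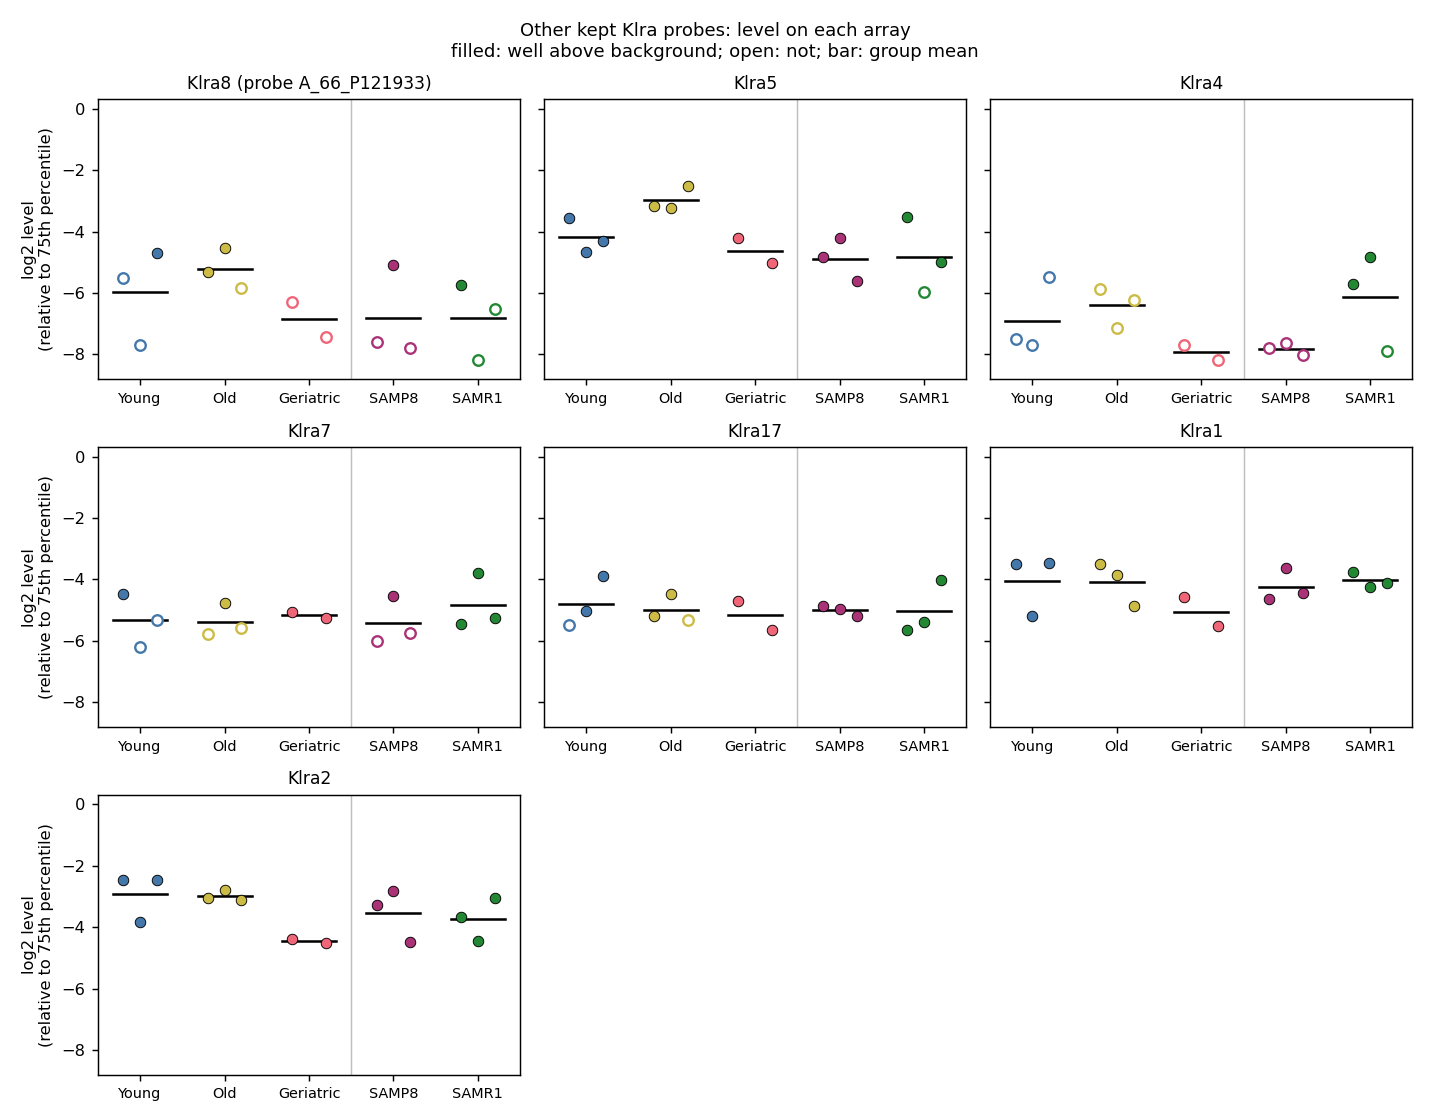
Level on each array (y axis, log2 relative to the array's 75th percentile) of the 7 other Klra probes that passed the filter, by group (x axis). Filled points are well above background, open points are not, and bars are group means. SAMP8 and SAMR1 overlap in every panel, and the Geriatric points for Klra2 lie below the Young and Old points.

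The 4 probes that failed the filter were the second probe of Klra5, A_51_P500090 and A_55_P2004541 for Klra7, and A_55_P2157859 for Klra17. Neither of these Klra7 probes was above background on any array, although A_66_P100029 for the same gene was on 8. The Klra17 probe was above background on SAMR1 2 at −4.81 and on SAMP8 3 at −5.35, and it read −8.17 to −6.45 elsewhere. Of the 11 probes that passed, 5 were detected on 12 or more arrays and 6 on 8 or fewer. Because a probe could pass through the group in which it was bright, counts over these 11 do not stand for the whole list.

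The comparison of SAMP8 with SAMR1 addresses how satellite cells of a senescence-prone strain differ from those of a resistant one. In the limma fit over all 14 arrays, adjusted by Benjamini-Hochberg over all kept probes, 4 of the 11 Klra probes were called lower in SAMP8 and none higher. Over all probes 0.421% were called in either direction and 0.212% were called lower. Since the members may have been chosen on this contrast, nothing is read from that count. For the same 4 probes the arrays of both strains did not overlap, SAMP8 being lower, which held for 5.52% of all probes.

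Klra8 averaged −7.74 ± 0.33 in SAMP8 and −1.28 ± 1.33 in SAMR1 by A_55_P2004526 (SD, n = 3 each), a log2 difference of −6.45 ± 0.62 (SE, limma adjusted p = 0.000501). Because no SAMP8 array was above background, this is given as a level at least 24.9-fold lower in SAMP8 on this scale. The bound sets the SAMR1 mean against, per SAMP8 array, the higher of the lowest detected signal and the probe's own signal. It is no minimum for other scales or floors. The differences with a common floor and on the authors' deposited log2 scale, given below, were smaller than such bounds. By A_55_P2004527 the means were −6.99 ± 0.38 in SAMP8 and −1.40 ± 1.04 in SAMR1, at least 23.0-fold lower in SAMP8 (limma adjusted p = 0.000232). By A_66_P121933 the log2 difference was −0.01 ± 0.92 (SE), with a 95% interval of −2.02 to 1.99.

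Klra9 averaged −6.52 ± 1.15 in SAMP8 and −1.77 ± 1.36 in SAMR1, a log2 difference of −4.75 ± 0.72 (SE, limma adjusted p = 0.0142). Klra6 averaged −7.79 ± 0.25 in SAMP8 and −3.34 ± 1.0 in SAMR1, at least 5.97-fold lower in SAMP8 (limma adjusted p = 0.0298). Klra4 differed by −1.68 ± 0.74 and was not called, with the strains overlapping through SAMR1 3. The other probes had differences between −0.60 (Klra7) and 0.20 (Klra2). The median over the 11 Klra probes was −0.60, beside 0.01 over all probes.

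The values within slides kept the direction for the 4 called probes. On slide 1, with SAMP8 2 against SAMR1 1 and 3, the differences were −5.77 and −5.36 for Klra8, −5.46 for Klra9 and −3.78 for Klra6. On slide 2, with SAMP8 1 and 3 against SAMR1 2, they were −7.29 and −6.22 for Klra8, −5.03 for Klra9 and −5.39 for Klra6. Within a single slide 1 strain has 1 array and 0 of all probes were called in this comparison, so these values carry no test. In a fit of the SAMP8 and SAMR1 arrays alone, which leaves out every array whose sex-linked transcripts go against its label, both Klra8 probes were called (limma adjusted p = 0.0421 and 0.0376), and Klra9 (0.196) and Klra6 (0.0609) were not.

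The Klra9 call rested on SAMR1 1 and SAMR1 2: its adjusted p was 0.0705 without the first and 0.0746 without the second. The Klra6 call was lost without either of these, without any 1 of the SAMP8 arrays, and without Young 1, Old 2 or either Geriatric array, and it was lost with a common floor of −5.29 under all dim spots, where the difference was −1.95 (adjusted p = 0.202). It was also lost with slide as a block (0.0598). The differences of Klra8 were smaller on the authors' deposited log2 scale, at −2.90 and −2.19, and with the common floor, at −4.01 and −3.89, and both were called in each. Klra9 differed by −2.34 on the authors' deposited log2 scale and by −3.53 with the common floor, and it was called in both.

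**Figure D3:**
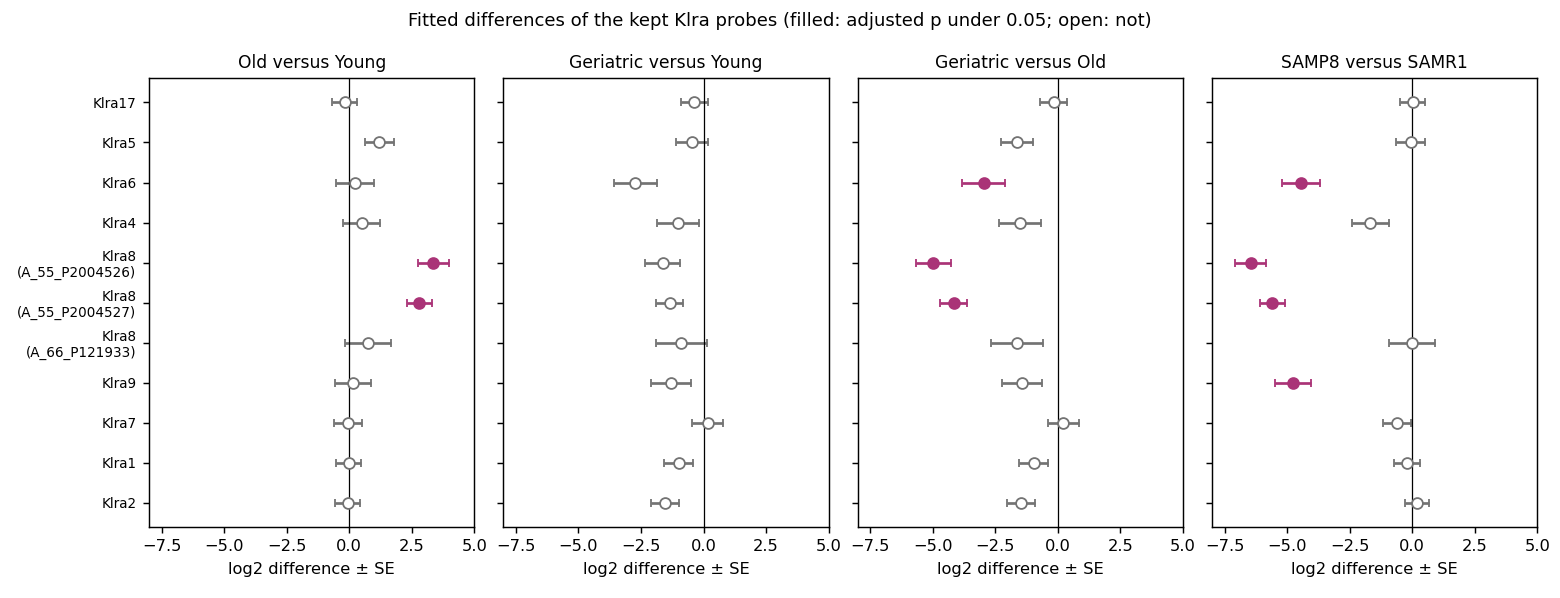
Fitted log2 differences (x axis) with SE bars of the 11 kept Klra probes (y axis, in their order along the chromosome) in 4 comparisons. Filled points have an adjusted p under 0.05. In SAMP8 versus SAMR1 the filled points are both neighbouring Klra8 probes, Klra9 and Klra6, and in Old versus Young they are both neighbouring Klra8 probes on the other side of 0.

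Old and Young C57BL/6 mice were compared for changes that come with age before the geriatric stage. Both neighbouring Klra8 probes were called higher in Old, 2 of 11 probes, where 1.24% of all probes were called and 1.03% were called higher. For A_55_P2004526 the means were −3.17 ± 0.58 in Old and −6.52 ± 0.97 in Young (SD, n = 3 each), and Klra8 was at least 4.98-fold higher in Old (limma adjusted p = 0.0302). For A_55_P2004527 they were −3.08 ± 0.05 in Old and −5.89 ± 0.65 in Young, at least 5.11-fold higher in Old (limma adjusted p = 0.0244). These bounds too hold for this scale only. With the common floor the differences were 2.12 and 2.20, each smaller than its bound, and both were called (limma adjusted p = 0.0497 and 0.0122). The third probe of the gene differed by 0.74 ± 0.92 (SE) and was not called.

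Klra5 was also apart in Old and Young, which with both Klra8 probes made 3 probes whose Old arrays were all higher, beside 12.8% of all probes. Its log2 difference was 1.20 ± 0.57 and was not called (limma adjusted p = 0.327). The other 7 probes had differences between −0.19 (Klra17) and 0.49 (Klra4). Klra8 differed by 3.73 and 2.86 on slide 1 and by 2.78 and 2.72 on slide 2. Within each slide 1 of these groups has 1 array and 0 of all probes were called, so these values carry no test. Both Old versus Young calls of Klra8 were lost without Young 1, Old 1 or Old 2, in a fit of these groups alone (limma adjusted p = 0.097 and 0.0623), and on the authors' deposited log2 scale, where the differences were 0.93 and 0.84. The call of A_55_P2004526 was also lost without Young 3, and that of A_55_P2004527 without Young 2.

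Geriatric mice were set against Old and against Young mice, which are different tests that share the Geriatric arrays. Against Old, 3 of 11 Klra probes were called lower, where 18.0% of all probes were called and 12.7% were called lower. Klra8 averaged −8.16 ± 0.01 in Geriatric (SD, n = 2) and −3.17 ± 0.58 in Old mice by A_55_P2004526, at least 8.12-fold lower in Geriatric (limma adjusted p = 0.00109). By A_55_P2004527 it was at least 8.62-fold lower in Geriatric (limma adjusted p = 0.000822). Both bounds hold for this scale only. With the common floor the Klra8 differences were −2.12 and −2.21, each smaller than its bound, and both were called (limma adjusted p = 0.0243 and 0.00496). Klra6 was called lower in Geriatric (limma adjusted p = 0.0359), but it was above background on no Geriatric array and on 1 of 3 Old arrays, so no fold is given. That call was lost with the common floor, where the difference was −0.24. It was lost as well without Old 1, Old 2 or either Geriatric array and with slide as a block (0.0558). The Klra6 call was also lost with quantile normalization, on the authors' deposited log2 values and with the replicate number as a block. On the authors' deposited log2 scale Klra8 differed by −1.13 by A_55_P2004526, which was not called (limma adjusted p = 0.0661), and by −0.95 by A_55_P2004527, which was called. Over all alternatives the limma adjusted p of A_55_P2004527 reached 0.04995, at the edge of the threshold.

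In 8 of the 11 probes every Geriatric array lay below every Old array, as did 32.8% of all probes. One of the 8, Klra4, was not above background on any array of either group, and 7 of the other 10 probes lay apart. These included Klra2, at −1.47 ± 0.55, and Klra5, at −1.65 ± 0.64, which were not called (limma adjusted p = 0.0845 and 0.0959). The median difference over the 10 probes above background in Geriatric or Old mice was −1.55, beside −0.18 over all probes. The Klra probes are dim, and the 75th percentile that is subtracted was higher on Geriatric arrays (9.97 on both) than on Old arrays (9.44 to 9.48). The part of this scaling in the member median was not tested. The Geriatric arrays all lay on slide 2, where Klra8 differed from Old by −4.93 and −4.15.

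Against Young, no Klra probe was called in the Geriatric arrays by limma, where 3.54% of all probes were called. Of the 11 Klra probes 4 had an unadjusted p under 0.05, as had 10174 of all 49918 kept probes. Of these 4, both neighbouring Klra8 probes were not above background on any array of either group, so their order cannot be read. The lowest adjusted p was 0.11, for Klra6, which was above background on no Geriatric array and on 1 of 3 Young arrays. Without Young 2, Klra6 was called (limma adjusted p = 0.037). Klra2, detected on all arrays, differed by −1.54 ± 0.55. In 3 of the 8 probes that were above background in Geriatric or Young mice every Geriatric array lay below every Young array. Over all probes, undetected ones included, the share was 26.5%.

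Levels in the SAM strains, averaged over SAMP8 and SAMR1, were also set against the average of the 3 C57BL/6 groups. Strain, age and sex-linked state cannot be told apart in that comparison. Both neighbouring Klra8 probes were called higher in the SAM strains, at 1.44 ± 0.42 and 1.21 ± 0.33, where 21.9% of all probes were called and 7.98% were called higher. Both calls were lost without Geriatric 3, SAMR1 1, SAMR1 2 or SAMP8 1, and within slide 2, where the differences were 1.53 and 1.56. The call of A_55_P2004526 was also lost without Geriatric 1 or SAMP8 2. Each side joins groups in which these probes were and were not detected, and no member probe had the SAM arrays apart from the C57BL/6 arrays. Markers of other cells differed in the same comparison, with 6 of 7 endothelial and 4 of 5 mesenchymal probes called higher in the SAM strains, at medians of 4.27 and 1.33. A summed level is the log2 of the added linear signals of the brightest kept probe of each gene in a list. The summed endothelial level was 4.0 to 5.71 in SAMP8 and 5.0 to 6.02 in SAMR1, against 3.41 to 4.10 in Young, 3.34 to 3.81 in Old and 4.07 to 4.12 in Geriatric mice. The part of these cells in the Klra differences was not tested. For A_55_P2004526 the order of group means was SAMR1, Old, Young, SAMP8 and Geriatric. SAMR1 and Old overlapped in it, and Old lay apart from Young.

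Among the members, levels of Klra6 and Klra9 correlated over the 14 arrays with r = 0.88, Klra6 and Klra8 (A_55_P2004527) with r = 0.87, and Klra4 and Klra6 with r = 0.85. These arrays share 5 groups, so the values describe mainly the same differences between groups. The genes outside the list whose level was most like that of Klra2, a member detected on all arrays, were Dos (r = 0.96), Tpm1 (0.94), Bpil3 (0.94), Gabrr1 (0.93) and Rarb (0.93). Those most like Klra8 by A_55_P2004526 were Arhgef33 (0.92), Crygs (0.87), Pqlc3 (0.84), Grid2ip (0.83) and Pydc3 (0.82). All are Pearson correlations over 14 arrays.

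The member probes from Klra17 to Klra1 spanned 498 kb, and the Klra2 probe lay 855 kb beyond them. The 4 probes called lower in SAMP8 lay between 148 kb (Klra6) and 324 kb (Klra9) from the first probe. Klra8 A_66_P121933 lay there too, at −0.01, but it was above background on 1 array of each strain, so no order of the strains can be read from it. The other kept probes between them differed by −3.61 (AY860976) to −0.66 (Klra12). Klra17, Klra5 and Klra1 toward the ends differed by −0.20 to 0.02. The stretch held 10 other kept probes, of Klra10, Klra12, Klra22, Klra23, the transcript AY860976 and unnamed features. None of them was called in SAMP8 versus SAMR1, and their median difference was −1.34. Outside the interval of the called probes, Klra10 differed by −2.67, the Klra22 probes by −1.29 and 0.14, an unnamed feature by −0.35 and Klra23 by 0.78. The 68 kept probes within 1 Mb outside the stretch included none called, with a median of 0.30. In Geriatric versus Old mice 2 of the 10 probes and 26 of the 68 were called lower, beside 12.7% of all probes.

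**Figure D4:**
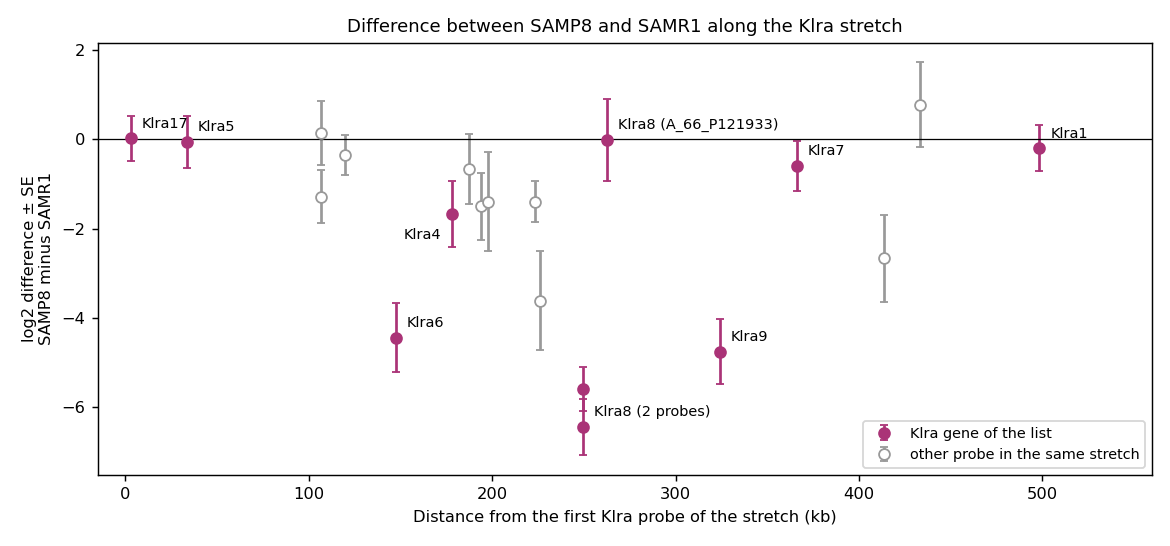
Log2 difference with SE bars (y axis, SAMP8 minus SAMR1) of kept probes against their distance in kb from the first Klra probe of the stretch (x axis). Filled points are the listed Klra genes and open points other probes of the stretch. The lowest points are Klra6, both neighbouring Klra8 probes and Klra9, with Klra17, Klra5 and Klra1 near 0.

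Ly49 genes outside the list were measured by 8 kept probes for 6 genes. None was called in SAMP8 versus SAMR1, with a median difference of −1.84, or in any other comparison. Other C-type lectin receptors of the same gene complex had 0 of 20 probes called in SAMP8 versus SAMR1, at a median of 0.16. In Geriatric versus Old, 8 of these 20 were called lower, beside 12.7% of all probes, among them Klrb1b at −3.32 ± 0.86, Klrg1 at −2.41 ± 0.68 and Klrc3 at −3.65 ± 1.04 (SE).

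A list of 13 signalling genes, with 16 probes, held adaptors of other receptors besides those of Ly49. In SAMP8 versus SAMR1 1 of these probes was called, beside 0.421% of all probes. It was that of Fcer1g, an adaptor of Fc receptors, which averaged −1.95 in SAMP8 and −4.13 in SAMR1, a difference of 2.17 ± 0.38 (SE, limma adjusted p = 0.0299). Tyrobp, the adaptor DAP12 through which Ly49H and Ly49D signal, averaged −6.24 ± 0.81 in SAMP8 and −4.38 ± 2.45 in SAMR1 and was detected on 1 array of each strain. In Geriatric versus Old, 6 of the 16 were called lower, beside 12.7% of all probes, with Vav1 and Zap70 among them. Of 31 probes for class I ligands and the genes that assemble them, 3 were called lower in SAMP8, beside 0.212% of all probes. They were those of H2-D1 (−6.64 ± 0.38), H2-Q8 (−5.39 ± 0.59) and H2-Q7 (−1.58 ± 0.22). How well these probes match the class I alleles of SAMP8 and SAMR1 mice was not tested. H2-D1 averaged −1.30 ± 0.96 in SAMP8 and 5.33 ± 0.10 in SAMR1 (SD, n = 3 each).

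Markers of the cells that carry Ly49 receptors were read on the same arrays. In bulk samples, fewer cells of a type and less RNA per cell cannot be told apart. Of the 23 natural killer cell markers 18 had a kept probe. Ncr1 was detected on all 14 arrays, whereas Klrd1, Klrk1 and Cd226 were above background on none. Between SAMP8 and SAMR1, 0 of 20 natural killer probes were called, with a median difference of −0.01. Their summed level was 2.94 to 3.73 in SAMP8, against 2.89 to 3.56 in SAMR1, so the ranges of both strains overlapped. The summed T cell markers were 3.09 to 3.31 in SAMP8 and 3.16 to 3.53 in SAMR1, and the myeloid markers 7.73 to 8.74 in SAMP8 and 7.55 to 8.12 in SAMR1, with no probe called in either list. The summed mesenchymal markers were 6.49 to 6.69 in SAMP8, against 5.81 to 6.26 in SAMR1, without overlap, and 0 of their 5 probes were called. The part of these cells in the Klra differences was not tested.

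In Geriatric versus Old, where 12.7% of all probes were called lower, 3 of 20 natural killer probes were called lower (Gzma and both Nkg7 probes), as were 3 of 12 T cell probes (Cd3d, Cd4 and Thy1), 5 of 18 myeloid probes and 1 of 10 B cell probes. The summed natural killer level was 2.89 to 3.11 in Geriatric, against 3.43 to 4.06 in Old mice, and the summed T cell level 2.36 to 2.81 in Geriatric, against 3.53 to 3.97 in Old. The summed myeloid level was 7.48 to 7.54 in Geriatric and 7.95 to 8.64 in Old. The part of these cells in the Klra differences was not tested. Between Old and Young none of these lists had a called probe, and the natural killer level was 3.43 to 4.06 in Old and 3.26 to 3.87 in Young. The summed T cell level was 3.53 to 3.97 in Old, against 4.14 to 4.31 in Young, so the groups did not overlap. The brightest genes weigh most in such a sum. By contrast, the median difference over the 12 T cell probes was −0.08, beside 0.07 over all probes.

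**Figure D5:**
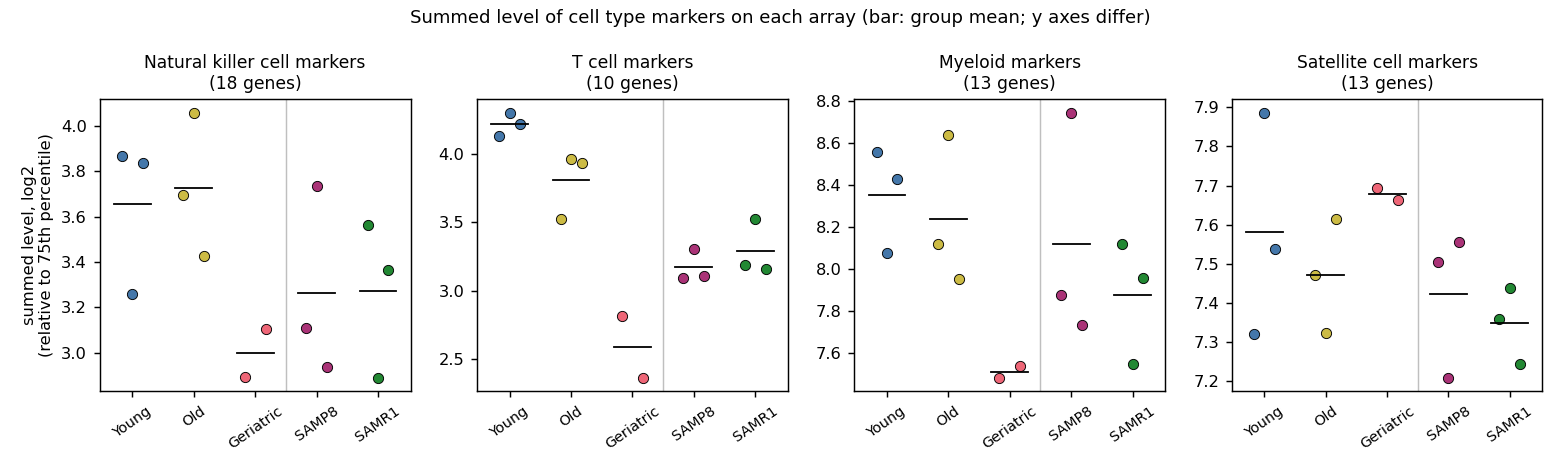
Summed level of cell type markers on each array (y axis, log2 relative to the array's 75th percentile, with a different range in each panel) by group (x axis). Points are arrays and bars are group means. Natural killer, T cell and myeloid sums are lowest in Geriatric mice, or among the lowest, and overlap between SAMP8 and SAMR1, while the satellite cell sum stays between 7.21 and 7.89 in all groups.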

How the data were processed

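The deposited scanner files give each spot's background-subtracted processed signal as a linear intensity, and the file headers name Agilent Feature Extraction 10.7.3.1 as its source and mm9 as the mouse build of the probe positions. The deposited value table holds log2 values; no source used here gives its method. It equalled, to within 1.17e-04, a normexp correction (offset 50), log2 and quantile normalization of the spot signals, and each column's median was 7.80. RNA was amplified before labelling, per the labels' protocols.

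Here control and outlier spots were dropped, replicate spots averaged, and log2 of the processed signal reduced by each array's 75th percentile. A two-sided limma fit (version 3.58.1, R 4.3.3) over the 14 arrays gave each group 1 coefficient, with moderated variances and a Benjamini-Hochberg threshold of 0.05. The fit was tested on simulated data. In all, 751 outlier values were missing among kept probes. The number of arrays limits the precision of each value.

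Every Klra probe was accounted for. Genes most alike were the 5 highest correlations with 2 member probes, chosen by detection and by the size of the SAM strains versus C57BL/6 difference. Other genes came from lists of cell type markers, ligands and signalling genes. The members and lists were chosen with earlier results of these data known. Slides were read from array identifiers and held several groups each. Alternatives were other scalings, filters, blocks, single slides, arrays left out, and a common floor, which was added after seeing the data. Same-numbered samples of different groups did not deviate together, so numbers were not used as pairs.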

Additional observations from a re-analysis of the deposited data

How the results depend on the processing

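No called Klra difference changed its sign under any alternative run. Values are the number of Klra probes called. For Old versus Young it was 0, against 2, with normexp and quantile normalization, on the authors' deposited log2 values, within slide 1, within slide 2 and with only these groups fitted, and 1 with one probe per gene. For Geriatric versus Old it was 1, against 3, with normexp and quantile normalization and on the authors' values. For SAMP8 versus SAMR1 it was 0, against 4, within slide 1 and within slide 2, and 2 with only these groups fitted. For the SAM strains versus C57BL/6 it was 4, against 2, with slide as a block, where Klra5 and Klra8 A_66_P121933 were called lower, 0 within slide 2, and 1 with one probe per gene. The cause of these changes was not tested.

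Leaving out 1 array at a time gave 0 to 2 probes for Old versus Young (0 without Young 1, Old 1 or Old 2), 0 to 1 for Geriatric versus Young (1 without Young 2), 2 to 3 for Geriatric versus Old, 2 to 4 for SAMP8 versus SAMR1 (2 without SAMR1 1 or SAMR1 2), and 0 to 2 for the SAM strains versus C57BL/6 (0 without Geriatric 3, SAMR1 2 or SAMP8 1, and 1 without Geriatric 1, SAMP8 2 or SAMR1 1, the last through Klra5). With the replicate number as a block the counts were 2 for Old versus Young, 0 for Geriatric versus Young, 2 for Geriatric versus Old, 3 for SAMP8 versus SAMR1 and 2 for the SAM strains versus C57BL/6. The deviations of 26 same-numbered pairs correlated at −0.23 to 0.17 (median −0.02), and those of 52 other pairs had a median of 0.05.

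Over all alternatives, the SAMP8 versus SAMR1 calls were kept in 25 of 27 settings for Klra8 A_55_P2004526 and 26 of 28 for A_55_P2004527, with both losses within single slides, where 0 of all probes were called, in 23 of 28 for Klra9 and in 13 of 28 for Klra6. These settings are not independent. The normexp setting and the authors' values nearly coincide, and leaving out a C57BL/6 array changes the test but not the difference. The count of all probes called moved by over 1.5 times in the following settings. For Old versus Young it was 1033 on the authors' values, 1242 with the common floor, 294 with the replicate block, 51 with only these groups and 0 within either slide, against 618. For Geriatric versus Young it was 1083 with slide as a block, 1125 with the replicate block, 560 with only these groups and 0 within slide 2, against 1769. For Geriatric versus Old it was 3960 with only these groups and 2081 within slide 2, against 8980. For SAMP8 versus SAMR1 it was 69 with only these groups and 0 within either slide, against 210, and for the SAM strains versus C57BL/6 it was 851 within slide 2, against 10944. With 1 array left out it was 134 to 936 for Old versus Young, 560 to 1993 for Geriatric versus Young, 2668 to 9994 for Geriatric versus Old and 106 to 301 for SAMP8 versus SAMR1.

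Quantile normalization moved the share of all calls that were higher to 63.9%, against 83.5%, for Old versus Young, to 51.6%, against 29.6%, for Geriatric versus Old, and to 53.7%, against 36.4%, for the SAM strains versus C57BL/6. For Geriatric versus Young the share was 52.2% on the authors' values, against 38.2%. The median difference over all probes moved with quantile normalization to 0.09, against −0.18, for Geriatric versus Old. Signal over background limits the dim values: 6 of 11 Klra probes were above background on 8 arrays or fewer.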
